A study of Mus musculus with 4 samples.

Results

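Muscle forms of energy metabolism genes, 10 in all, were followed through the differentiation of mouse embryonic stem cells (ESCs) into cardiomyocytes. They were Cox8b (NM_007751), Cox6a2 (NM_009943), Cox7a1 (NM_009944), Ckmt2 (NM_198415), Ckm (NM_007710), Cpt1b (NM_009948), Fabp3 (NM_010174), Slc25a4 (NM_007450), Pgam2 (NM_018870) and Mb (NM_013593). The array held 12 probes for these 10 transcripts among 39429 unique probes. The genes were selected on the measured signals of the same arrays, as forms of energy enzymes found in heart and skeletal muscle, so their signals are a description and carry no test.

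RNA of 4 populations was hybridized to 1-colour Agilent arrays, with 1 array per population, 1 slide and no replicates. Flk1+MPC are mesodermal precursor cells that carry the surface receptor Flk1, at day 4.5 of differentiation. PCB are the PDGFRα+Flk1- cardioblasts at day 5.5 after CsAYTE, which combines the ALK5 blocker EW7197, the ROCK blocker Y27632, Cyclosporin A and, as an antioxidant, Trolox, and sfPCB are the spontaneously formed cardioblasts of the same day, without CsAYTE and with DMSO as the vehicle. M+CM are cardiomyocytes at day 10.5, sorted for GFP driven by the αMHC promoter, and their label does not say whether CsAYTE was given. All 4 were derived from mouse ESCs, and the methods place sorted Flk1+MPC on OP9 stromal feeder cells, which are also of mouse, or on gelatin. Array and population cannot be told apart in this design, and in a mixed population fewer cells of a type and less RNA per cell cannot be told apart either.

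Striated muscle draws its ATP from fatty acid oxidation and the respiratory chain, and several enzymes of these routes exist as a muscle form and a form found in most tissues. Cytochrome c oxidase, the last enzyme of the respiratory chain, carries small nuclear-encoded subunits whose heart and skeletal muscle forms are Cox6a2, Cox7a1 and Cox8b. Creatine kinases pass the phosphate of ATP to creatine, myoglobin binds oxygen, and both are abundant in adult heart and skeletal muscle.

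Of the 10 genes, 8 were found in the RefSeq promoter table of build GRCm38.p6, and the 250 bases before the start are shown for a gene with the steepest final rise (Cox8b), for a subunit gene that already had signal in Flk1+MPC (Cox7a1) and for the muscle glycolytic gene (Pgam2). The Cox8b stretch is chr7:140900447-140900696 on the minus strand, that of Cox7a1 is chr7:30183921-30184170 on the plus strand, and that of Pgam2 is chr11:5803797-5804046 on the minus strand. Capitals mark E-boxes (CANNTG), GATA sites (AGATAA on either strand) and a MEF2 site.
Cox8b: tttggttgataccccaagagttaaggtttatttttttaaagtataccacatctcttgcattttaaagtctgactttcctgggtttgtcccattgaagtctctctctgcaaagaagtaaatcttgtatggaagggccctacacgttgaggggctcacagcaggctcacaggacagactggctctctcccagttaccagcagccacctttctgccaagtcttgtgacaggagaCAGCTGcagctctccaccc
Cox7a1: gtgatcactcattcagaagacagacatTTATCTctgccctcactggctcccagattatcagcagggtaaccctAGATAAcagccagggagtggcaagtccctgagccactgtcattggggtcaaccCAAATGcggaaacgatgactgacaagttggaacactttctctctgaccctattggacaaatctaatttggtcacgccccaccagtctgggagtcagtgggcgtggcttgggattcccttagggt
Pgam2: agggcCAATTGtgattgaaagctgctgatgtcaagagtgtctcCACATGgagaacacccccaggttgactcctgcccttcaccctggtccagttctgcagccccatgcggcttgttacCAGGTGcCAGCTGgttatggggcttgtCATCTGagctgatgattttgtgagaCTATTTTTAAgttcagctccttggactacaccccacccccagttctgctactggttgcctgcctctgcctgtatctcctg
An E-box, the core letters bound by muscle and other helix-loop-helix factors, was present before the start of all 8 genes, but also in 66.2% of the 32851 promoters of the table. The same letters read on the opposite strand are again CANNTG, so each place was counted once. Pgam2 held 5 of them, Ckmt2 held 4, and Cox8b held 1, at 19 to 14 bases before the start. The MEF2 site of Pgam2 lay 80 to 71 bases before the start, and a MEF2 site was found in 1 of 8 genes and in 2.92% of all promoters. GATA sites were found in Cox7a1 alone among the 8 genes, with 2 matches, and in 9.99% of all promoters. The core site of oestrogen-related receptors (AAGGTCA, either strand) was in 0 of 8 genes and 4.08% of promoters, TATAAA on either strand in 0 of 8 and 12.4%, and the CArG box of SRF in 0 of 8 and 1.47%. These letter matches are descriptions of the windows and were not tested for binding.

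All signals given for the arrays are the scanner software's background-subtracted signals after each array was scaled to a common 75th percentile of 2198.4, with factors between 0.867 and 1.116. Between 72.9% and 76.0% of probes were well above background, and the median scaled signal of negative control spots lay between 3.47 and 3.70. The errors given are those the software estimated for the spot and its background, and differences between cultures had no estimate. A log2 ratio between strong signals carried an error of 0.20. Where the dimmer of the arrays was not well above background, the ratio was taken against the higher of that signal and the lowest signal called well above background on that array, which was between 15.1 and 15.9, and it is given as "at least". Such bounds hold for the software's own background subtraction, and other background treatments gave lower values for some genes.

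All 10 genes had their highest signal in M+CM, and all 10 were detected there. Flk1+MPC, sfPCB and PCB each had 7 of the 10 well above background. From PCB to M+CM 9 of 10 genes were at least 2-fold higher and 0 were at least 2-fold lower, with a median log2 ratio of 3.50, where 18.7% of all probes were at least 2-fold higher, 14.6% were lower and the median probe had a log2 ratio of 0.15. Cox8b, Cox6a2, Pgam2 and Mb were at least 30-fold higher, as were 0.485% of all probes. The genes differed widely in where they stood before this step, as the plot of the signals of each gene shows.

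**Figure D1:**
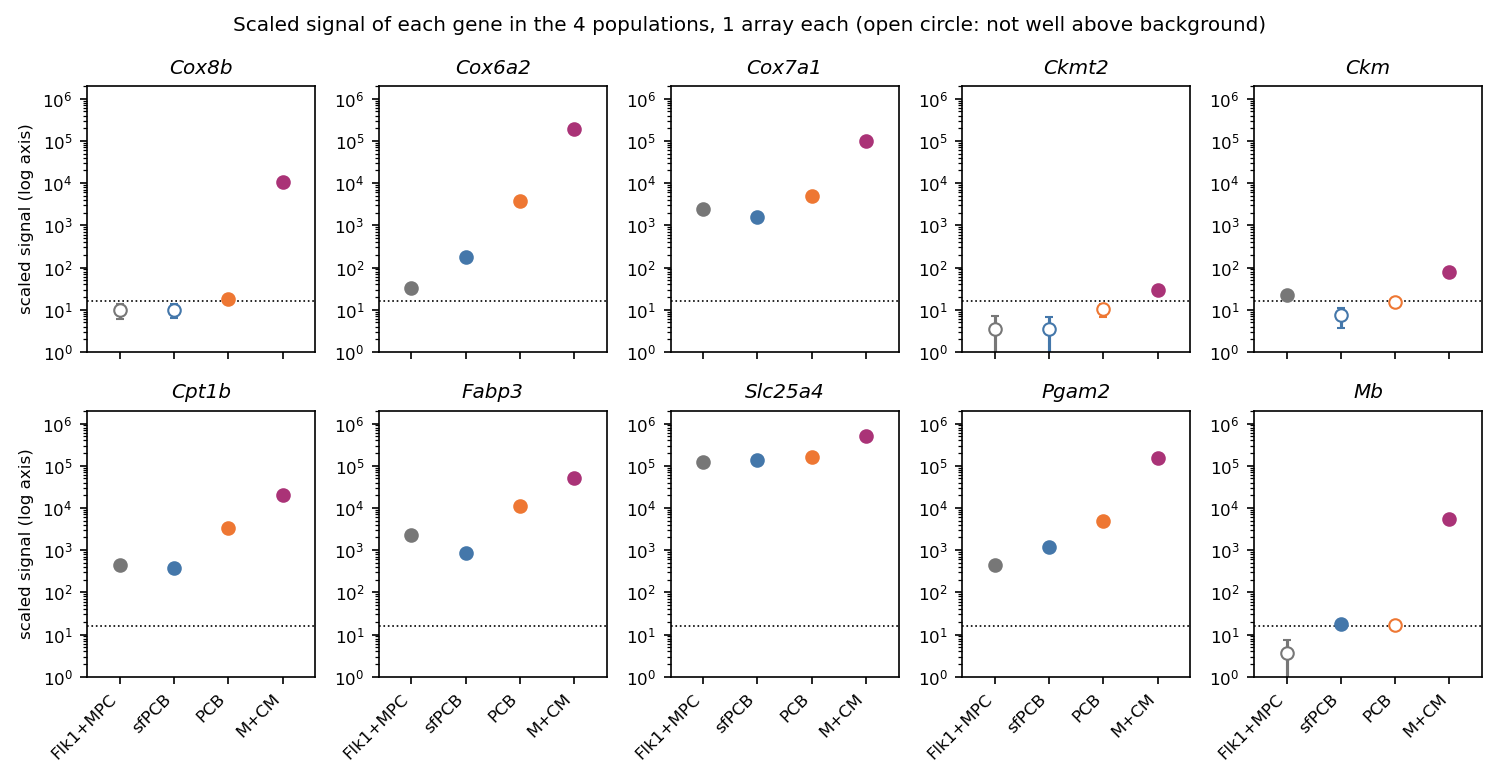
Scaled signal of each of the 10 genes (log axis) in Flk1+MPC, sfPCB, PCB and M+CM, 1 array each. Bars are the error estimated by the scanner software, open circles are signals not well above background, and the dotted line at 15.9 is the lowest signal called well above background in Flk1+MPC, the highest such limit of the 4 arrays. M+CM is the highest point in every panel, while Cox8b, Ckmt2, Ckm and Mb lie near the dotted line in the other 3 populations.

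The muscle subunits of cytochrome c oxidase showed 3 different courses. Cox8b, the heart form of the smallest subunit, had signals of 9.77 in Flk1+MPC and 9.97 in sfPCB, neither well above background, 18.2 in PCB and 10753 (error 1075) in M+CM. The first 3 arrays stood at or close to background, and M+CM stood alone above them. The log2 ratio of M+CM to PCB was 9.21 (error 0.35), 591-fold, and no other of the 31132 probes compared had as high a value. Probes not well above background in PCB entered that order by their bounds and may have risen more. Against Flk1+MPC the signal in M+CM was at least 674-fold higher. These sizes depended on the background treatment. After normexp background correction with quantile normalization the log2 ratios of M+CM were 7.16 over PCB and 7.28 over Flk1+MPC. With an offset of 50 added to the signals they were 7.31 and 7.50. The place among all probes was taken from the scaled signals alone.

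Cox6a2, which encodes the heart and muscle form of subunit VIa, had a different level in each population. Its signal was 32.8 (error 4.68) in Flk1+MPC, 177.3 (error 18.0) in sfPCB, 3774 (error 377.4) in PCB and 196238 in M+CM. The 4 arrays were in the order Flk1+MPC, sfPCB, PCB and M+CM, with each neighbour separated by more than 2 errors. PCB were 115-fold above Flk1+MPC (log2 ratio 6.85, error 0.25) and 21.3-fold above sfPCB (4.41, error 0.21). M+CM were 52.0-fold above PCB (5.70, error 0.20). From Flk1+MPC to M+CM the log2 ratio was 12.55, and 4 of 31540 probes, this one included, had as high a value, with bounds in place of ratios for probes not well above background in Flk1+MPC. On the log2 scale, with Flk1+MPC at 0 and M+CM at 1, PCB stood at 0.55 and sfPCB at 0.19.

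Cox7a1, the muscle form of subunit VIIa, was well above background in all 4 populations, at 2474 in Flk1+MPC, 1569 in sfPCB, 4917 in PCB and 101814 in M+CM. The lowest array was sfPCB and not Flk1+MPC. PCB were 3.13-fold above sfPCB (log2 ratio 1.65, error 0.20) and 1.99-fold above Flk1+MPC, and M+CM were 20.7-fold above PCB (4.37, error 0.20). Most of its rise therefore fell after day 5.5, with PCB at 0.18 of the log2 distance.

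The creatine kinases stayed near the detection limit until the last population. Ckm, the cytosolic muscle creatine kinase, gave 22.5 (error 4.05) in Flk1+MPC, 7.37 in sfPCB and 15.5 in PCB, the last pair not well above background, and 79.2 (error 8.56) in M+CM. M+CM were 3.51-fold above Flk1+MPC (log2 ratio 1.81, error 0.30) and at least 5.09-fold above PCB, whereas Flk1+MPC and PCB lay within 2 errors of each other. At these low signals the size depended on the background treatment: over PCB the log2 ratio was 0.77 after normexp background correction with quantile normalization and 0.98 with an offset of 50 added to the signals, and over Flk1+MPC 0.67 and 0.83, all under 2-fold. Ckmt2, the creatine kinase of muscle mitochondria, gave 3.49, 3.42 and 10.3 in Flk1+MPC, sfPCB and PCB, all not well above background, and 29.3 (error 4.45) in M+CM. Its rise from PCB to M+CM was at least 1.88-fold, so it was not counted as 2-fold higher, although the signals as measured differed by 1.51 (error 0.55) on the log2 scale. This difference was 0.23 after normexp and 0.39 with an offset of 50, so its size is not firm. Mb, myoglobin, was likewise low in the first 3 arrays, at 3.70 in Flk1+MPC, 17.9 in sfPCB and 17.2 in PCB, with only sfPCB well above background, and it reached 5615 (error 561.5) in M+CM. With the software's background M+CM were at least 326-fold above PCB (log2 ratio 8.35), and sfPCB and PCB lay within 2 errors of each other. The size again depended on the background treatment. Over PCB the log2 ratio of Mb was 6.07 after normexp with quantile normalization and 6.40 with an offset of 50.

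Cpt1b and Fabp3, which handle fatty acids, were already higher in PCB than in Flk1+MPC. Cpt1b, the muscle carnitine palmitoyltransferase that admits long-chain fatty acids to mitochondria, had signals of 434.4 in Flk1+MPC, 381.9 in sfPCB, 3290 in PCB and 20277 in M+CM. The Flk1+MPC and sfPCB arrays lay within 2 errors of each other, and PCB were 7.57-fold above Flk1+MPC (log2 ratio 2.92, error 0.20) and 8.62-fold above sfPCB (3.11, error 0.20). M+CM were a further 6.16-fold above PCB (2.62, error 0.20). Its pair of probes gave log2 ratios of 2.58 and 2.67 for M+CM over PCB, and 3.22 and 2.99 for PCB over sfPCB.

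Fabp3, the heart fatty acid binding protein, had signals of 2263 in Flk1+MPC, 855.1 in sfPCB, 10972 in PCB and 50460 in M+CM. The sfPCB array was below Flk1+MPC, 2.65-fold lower, and the PCB array above it, 4.85-fold higher (log2 ratio 2.28, error 0.20). PCB were therefore 12.8-fold above sfPCB (3.68, error 0.20), and M+CM were 4.60-fold above PCB (2.20, error 0.20). Both probes of Fabp3 showed this, with log2 ratios of 3.66 and 3.70 for PCB over sfPCB and 2.23 and 2.18 for M+CM over PCB. PCB stood at 0.51 of the log2 distance between Flk1+MPC and M+CM for Fabp3 and at 0.53 for Cpt1b.

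Pgam2, the muscle phosphoglycerate mutase of glycolysis, had signals of 453.3 in Flk1+MPC, 1166 in sfPCB, 4963 in PCB and 155829 in M+CM. No neighbours in this order lay within 2 errors of each other. PCB were 10.9-fold above Flk1+MPC (log2 ratio 3.45, error 0.20) and 4.25-fold above sfPCB (2.09, error 0.20), and M+CM were 31.4-fold above PCB (4.97, error 0.20). PCB stood at 0.41 of the log2 distance.

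Slc25a4, the muscle form of the mitochondrial carrier that exchanges ADP for ATP, changed least among the genes measured in all 4 arrays. Its 1 probe, spotted 10 times, gave 119472 in Flk1+MPC, 135194 in sfPCB, 164606 in PCB and 498657 in M+CM. The first 3 signals were close together, with Flk1+MPC and sfPCB, and sfPCB and PCB, within 2 errors of each other, and M+CM were 3.03-fold above PCB (log2 ratio 1.60, error 0.20). The SD between the 10 spots was between 0.045 and 0.088 on the log2 scale in the 4 arrays, and the lowest of the M+CM spots (456586) lay above the highest of the PCB spots (172738).

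**Figure D2:**
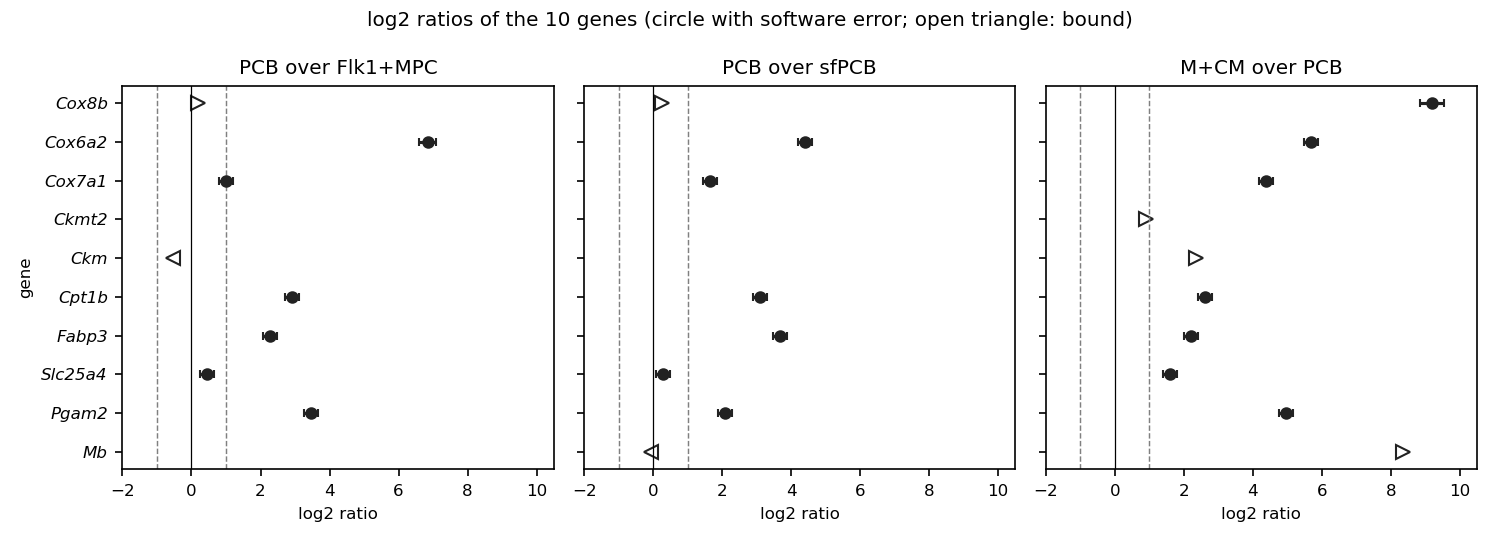
Log2 ratios of the 10 genes for PCB over Flk1+MPC, PCB over sfPCB and M+CM over PCB, 1 array per population. Circles carry the error of the ratio from the scanner software, open triangles are bounds that point away from 0 where the dimmer array was not well above background, and dashed lines mark 2-fold. In the right panel 9 of 10 genes lie beyond 2-fold, and in the left and middle panels Cox6a2 lies farthest to the right.

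The step from Flk1+MPC to CsAYTE-induced PCB asks which of these genes are present before the cardiomyocyte stage. Of 8 genes detected in at least 1 of the arrays, Cox6a2, Cpt1b, Fabp3 and Pgam2 were at least 2-fold higher in PCB and 0 were at least 2-fold lower, where 11.6% of all probes were higher and 10.5% lower. Cox7a1 lay just under 2-fold, and it passed when the arrays were scaled by quantiles, on the probes detected on all arrays, or not at all. Cox6a2 was at least 30-fold higher, as were 1.05% of all probes. The median log2 ratio of the 10 genes was 1.89 with signals taken as measured, and 1.63 over the 8 compared with bounds in place, and it was 0.72 with an offset of 50 and 2.60 over genes detected on both arrays.

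PCB against sfPCB asks what cardioblasts formed with CsAYTE carry beyond those formed without it. Of 8 genes compared, Cox6a2, Cox7a1, Cpt1b, Fabp3 and Pgam2 were at least 2-fold higher in PCB and 0 were lower, where 4.95% of all probes were at least 2-fold higher and 6.41% lower. The remaining 3 were Slc25a4, with a log2 ratio of 0.28 (error 0.20), and Cox8b and Mb, for which bounds near 0 were all that could be given. The median log2 ratio of the 10 genes was 1.62 as measured, which includes Ckm and Ckmt2, undetected on both arrays, and 1.87 over the 8 compared with bounds in place. It was 0.82 after normexp and 2.60 over genes detected on both arrays.

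The sfPCB array did not stand uniformly above Flk1+MPC. Of 8 genes compared, Cox6a2 (5.41-fold) and Pgam2 (2.57-fold) were at least 2-fold higher in sfPCB, as were 12.0% of all probes, and Fabp3 was at least 2-fold lower, as were 10.5% of all probes. The other 5 were under 2-fold, among them Cox7a1 with a log2 ratio of -0.66 (error 0.20) and Cpt1b with -0.19 (error 0.20). The median log2 ratio of the 10 genes was 0.00, against -0.22 for all probes. From Flk1+MPC to M+CM, 9 of 10 genes were at least 2-fold higher (20.7% of all probes) and 6 of 10 at least 30-fold higher (1.65% of all probes), and the median log2 ratio was 5.45. The comparisons share arrays, so the values of a gene in different comparisons are not independent of each other.

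The lists of cell type markers took different courses over the 4 arrays. The summed signal of 12 cardiomyocyte markers, from Myh6 to Myl4, was 19108 in Flk1+MPC, 17320 in sfPCB, 1029890 in PCB and 2959380 in M+CM. All 12 were at least 2-fold higher in PCB than in Flk1+MPC and than in sfPCB, and 11 of 12 were at least 2-fold higher in M+CM than in PCB. The near-equal sums of Flk1+MPC and sfPCB held opposite moves. Of 11 compared, 3 were at least 2-fold higher in sfPCB and 2 lower, where 12.0% of all probes were higher and 10.5% lower. Tnnt2 had 150.2 in Flk1+MPC and 3176 in sfPCB, and Myl7 had 6095 and 588.2. For 10 markers of adipocytes or OP9 stroma the sums were 2244 in Flk1+MPC, 95239 in sfPCB, 71877 in PCB and 20763 in M+CM. Of these 10, 9 were at least 2-fold higher in PCB than in Flk1+MPC, 6 were higher and 2 lower in PCB than in sfPCB, and 7 were lower in M+CM than in PCB. The 2 lower in PCB than in sfPCB were Col1a1 (28386 against 58341) and Col3a1 (3120 against 15636). Fabp4 had 7958 in sfPCB and 23663 in PCB. Lpl, the 1 marker at least 2-fold higher in M+CM than in PCB, made up 15865 of the M+CM sum. Among all probes 11.6% were at least 2-fold higher in PCB than in Flk1+MPC. In PCB against sfPCB 4.95% were higher and 6.41% lower, and in M+CM against PCB 18.7% were higher and 14.6% lower. The part of such cells in the signals of the 10 genes was not tested. Of 10 skeletal muscle markers, Myf5, Myog, Myh1 and Myh4 were not well above background in any of the 4 arrays, and Myod1 was so in Flk1+MPC alone at 29.3. The sum of the skeletal list rose from 1504 in Flk1+MPC to 27601 in M+CM, of which Acta1, an actin that the developing heart also uses, made up 26918. Of the same list, Tnni2 had 246.6 in Flk1+MPC, 1503 in sfPCB, 2397 in PCB and 550.1 in M+CM. Tnnt3 had 549.1, 615.0, 301.3 and 62.1 in the same order. The 5 smooth muscle markers summed to 25830 in Flk1+MPC, 189988 in sfPCB, 254443 in PCB and 413843 in M+CM. Most of the later sums was Acta2, with 124536 in sfPCB, 191818 in PCB and 312114 in M+CM. Tagln was higher in sfPCB (58693) than in PCB (32214). Cnn1 was lower in sfPCB (2501) than in Flk1+MPC (3990), and Myh11 was not well above background in sfPCB. The 5 primitive blood markers summed to 301.7 in Flk1+MPC, 3426 in sfPCB, 3154 in PCB and 204.8 in M+CM, so that both cardioblast arrays had the higher sums. Most of these sums was Hbb-bh1 (2781 in sfPCB and 2525 in PCB). Itga2b in PCB (27.7) and Klf1 in sfPCB (29.8) were not above their Flk1+MPC signals of 31.6 and 34.1. The 5 endothelial markers summed to 25152 in Flk1+MPC, 8386 in sfPCB, 2596 in PCB and 4410 in M+CM, most of it Kdr, the gene of Flk1. The probes of Kdr disagreed in size, with log2 ratios of -6.16 and -0.63 for PCB over Flk1+MPC. However, Cdh5 (986.6) and Tek (1463) had their highest signals in sfPCB, with 6.48 (not well above background) and 40.4 in PCB. The part of these cells in the comparison of PCB with sfPCB was not tested either. The labels give the cell type of all samples as embryonic stem cells, and the summed signal of 5 pluripotency markers was 10722 in Flk1+MPC, 1570 in sfPCB, 739.3 in PCB and 514.4 in M+CM. Most of the Flk1+MPC sum was Dppa5a (8781). Pou5f1, the defining gene of that list, was not well above background in PCB. Sox2 went the other way, with 166.8 in Flk1+MPC, 876.7 in sfPCB and 216.7 in PCB. The probes of Nanog disagreed, with log2 ratios of -5.17 and 1.16 for PCB over Flk1+MPC. Of 5 early mesoderm markers, T, Mesp1 and Mixl1 were not well above background in PCB and M+CM, and Eomes went from 21193 in Flk1+MPC to 13.5 in PCB and 9.55 in M+CM. Pdgfra, the gene of the receptor by which PCB were defined, had 7237 in Flk1+MPC, 3647 in sfPCB, 9136 in PCB and 918.3 in M+CM.

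Other forms of the same enzymes, found widely or in tissues other than muscle, were compared at the same step. Of 15 such genes, 13 could be compared between PCB and M+CM, with a median log2 ratio of 0.71. Of these, 2 were at least 2-fold higher, 3 lower and 8 under 2-fold, where 18.7% of all probes were higher and 14.6% lower. Cox8a had signals of 133072 in Flk1+MPC, 102627 in sfPCB, 115681 in PCB and 261947 in M+CM. It was high in all 4 arrays and rose by a log2 ratio of 1.18 (error 0.20) from PCB to M+CM, 8.03 below that of Cox8b. The testis form Cox8c was not well above background in any array. Cox6a1 lay between 233289 and 234267 in the first 3 arrays and at 380534 in M+CM, a log2 ratio of 0.71 against 5.70 for Cox6a2. Cox7a2 (log2 ratio 0.90) and Cox7a2l (0.66) likewise rose less than Cox7a1 (4.37).

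Pgam1, the phosphoglycerate mutase of most tissues, had its highest signal in Flk1+MPC, at 266717, with 121754 in sfPCB, 106107 in PCB and 169911 in M+CM. It was 1.33 lower on the log2 scale in PCB than in Flk1+MPC, where Pgam2 was 3.45 higher. From PCB to M+CM Pgam1 had a log2 ratio of 0.68 and Pgam2 of 4.97. The nucleotide carrier Slc25a5 fell from 41888 in Flk1+MPC to 15465 in sfPCB and 25421 in PCB and stood at 41459 in M+CM, so that its log2 ratio of M+CM over PCB was 0.71 against 1.60 for Slc25a4. Slc25a31, the form known from germ cells, stood at or near the detection limit, with signals between 3.68 and 17.8.

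Ckb, the brain form of creatine kinase, was well above background in all 4 arrays, at 1529 in Flk1+MPC, 594.5 in sfPCB, 3664 in PCB and 7137 in M+CM. It was lowest in sfPCB, and PCB were 6.16-fold above sfPCB (log2 ratio 2.62, error 0.20), a comparison in which Ckm was not well above background on either side. From PCB to M+CM its log2 ratio was 0.96, against at least 2.35 for Ckm. That of Ckm was 0.77 after normexp and 0.98 with an offset of 50, so the gap between these forms is not firm. Ckmt1, the mitochondrial creatine kinase of other tissues, had signals between 3295 and 6266, with a log2 ratio of M+CM over PCB of 0.93. That of Ckmt2, at least 0.91, cannot be placed above or below it.

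Cpt1a, the liver form of the carnitine palmitoyltransferase, followed another course than Cpt1b, with 35.9 (error 5.95) in Flk1+MPC, 392.0 in sfPCB, 500.0 in PCB and 2087 in M+CM. Its larger step lay between Flk1+MPC and both cardioblast arrays, with a log2 ratio of 3.45 for sfPCB, where that of Cpt1b was -0.19. Its probes gave log2 ratios of 2.59 and 4.31 for sfPCB over Flk1+MPC. From PCB to M+CM Cpt1a rose as well, with a log2 ratio of 2.06, which lay within 2 errors of the 2.62 of Cpt1b. Cpt1c, the brain form, stayed between 817.7 and 1207 in the 4 arrays.

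The fatty acid binding proteins went in opposite directions at the last step. Fabp4, the adipocyte form and a member of the adipocyte list, had 102.0 in Flk1+MPC, 7958 in sfPCB, 23663 in PCB and 383.8 in M+CM, a log2 ratio of -5.95 (error 0.20) from PCB to M+CM. Fabp5, the epidermal form, was -1.62 at this step, from 63700 to 20728, and Fabp7, the brain form, went from 43.0 in PCB to a signal not well above background in M+CM. Fabp3 alone among these 4 was higher in M+CM than in PCB.

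**Figure D3:**
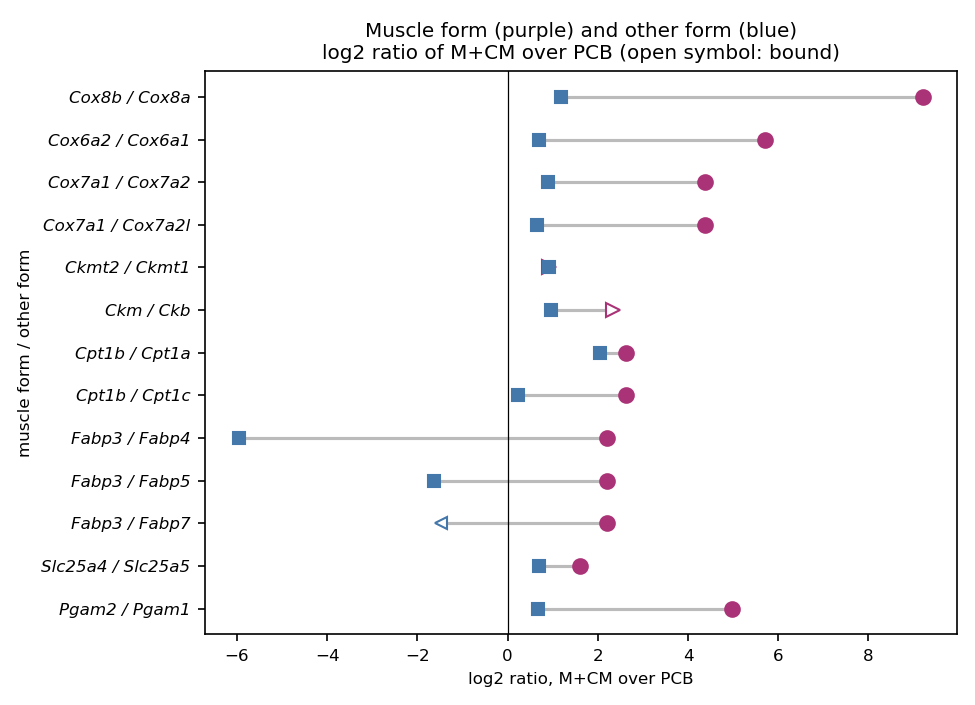
Log2 ratio of M+CM over PCB for each muscle form (purple circles) and its partner forms (blue squares), 1 array per population. Open triangles are bounds. In 12 of 13 pairs the muscle form lies to the right, by between 0.56 (Cpt1b and Cpt1a) and 8.15 (Fabp3 and Fabp4), and for Ckmt2, given as a bound, the symbol falls on that of Ckmt1. The 0.56 of Cpt1b and Cpt1a (error 0.29) lies within 2 errors. Ckm is a bound, and other background treatments gave it 0.77 and 0.98, where Ckb had 0.96 as drawn. Muscle forms with several partners enter more than once.

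Other genes of the same routes rose at the last step as well, over lists chosen with earlier results of these arrays known. All 10 other cytochrome c oxidase subunits were at least 2-fold higher in M+CM than in PCB, with a median log2 ratio of 1.37, though without scaling 6 of 10 were. Of all probes, 18.7% were higher at this step, and 14.5% without scaling. The largest ratios were 3.63 for Cox4i2, a form of subunit IV, from 707.9 in PCB to 8776 in M+CM, and 1.64 for Cox6b1. Cox4i2 had been 4200 in Flk1+MPC, so its course fell and rose again. From Flk1+MPC to PCB 0 of these 10 were at least 2-fold higher and 2 were lower, Cox4i2 and Cox6b2. Of all probes 11.6% were higher and 10.5% lower.

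Of 22 genes of fatty acid uptake and oxidation, 16 were at least 2-fold higher in M+CM than in PCB and 0 were lower. Of all probes 18.7% were higher and 14.6% lower, and the median log2 ratio of the 22 was 1.63. Pdk4, the kinase that restrains pyruvate oxidation, rose from 701.7 to 15130 (log2 ratio 4.43, error 0.20), and Acadl, a dehydrogenase of long-chain fatty acids, from 2185 to 16643 (2.93, error 0.20). From Flk1+MPC to PCB 4 of 22 were higher, Cd36, Lpl, Etfb and Acadm, where 11.6% of all probes were. The other 18 were under 2-fold, and the median log2 ratio was 0.53. In PCB against sfPCB 3 of 22 were higher, where 4.95% of all probes were. They were Cd36 (2.38), Lpl (1.21) and Acsl1 (1.02), all of which act in the uptake or activation of fatty acids. Lpl is also on the adipocyte list.

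Of 12 genes of muscle glycogen use and glycolysis, 9 were at least 2-fold higher in M+CM than in PCB and 0 lower. Of all probes 18.7% were higher and 14.6% lower, and the median log2 ratio of the 12 was 1.95. Pygm, the muscle glycogen phosphorylase, rose from 611.6 to 29678 (log2 ratio 5.60, error 0.20), and Ldhb, the heart form of lactate dehydrogenase, from 20116 to 175937 (3.13, error 0.20). From Flk1+MPC to PCB 4 were higher and 5 lower, where 11.6% of all probes were higher and 10.5% lower. The number lower was between 2 and 5 under the alternatives, 3 without scaling or with quantile normalization. The higher ones were Slc2a4 (log2 ratio 3.56), Phka1 (2.16), Eno3 (2.14) and Phkg1 (1.09), and the lower ones were Ldha, Aldoa, Hk2, Pgm1 and Ldhb, between -1.56 and -1.09. Phkg1 had low signals, 20.9 (error 7.98) in Flk1+MPC and 44.6 (error 9.05) in PCB, so its ratio is not firm. The number higher was between 3 and 4 under the alternatives. Slc2a4, the insulin-responsive glucose transporter, and Eno3, the muscle enolase, were also the 2 of 12 at least 2-fold higher in PCB than in sfPCB. Of all probes 4.95% were.

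Of 3 genes of creatine supply, Slc6a8, the creatine transporter, was at least 2-fold higher in M+CM than in PCB (log2 ratio 1.73), and Gamt, an enzyme of creatine synthesis, had 0.38. Of 8 genes of nucleotide and phosphate transfer, 3 were higher and 0 lower, where 18.7% of all probes were higher and 14.6% lower. The largest ratios were those of the adenylate kinase Ak1 (2.19) and the phosphate carrier Slc25a3 (1.44). For Ampd1, the muscle AMP deaminase, which was not well above background in M+CM, a bound of -0.38 was all that could be given.

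Of 18 regulators of mitochondrial and fatty acid genes, 8 were at least 2-fold higher in M+CM than in PCB and 3 were lower. Of all probes 18.7% were higher and 14.6% lower, and the median log2 ratio of the 18 was 0.87. Ppargc1b, a coactivator of mitochondrial genes, rose from 173.8 to 3643 (log2 ratio 4.39, error 0.21). Ppara, a receptor that drives fatty acid oxidation genes, had 4.66 (error 0.61), but its 3 probes ranged from 0.75 to 7.69. Pparg (-2.52), which is also on the adipocyte list, and Hif1a (-1.17) were the lowest. In PCB against sfPCB 3 of 18 were higher, which were Esrrg (4.50), Mef2c (3.01) and Ppargc1a, and 1 was lower, Esrrb (-1.35). Of all probes 4.95% were higher and 6.41% lower. Ppargc1a, the best known coactivator of mitochondrial genes, had 9.68 in Flk1+MPC, 10.2 in sfPCB, 226.0 in PCB and 3676 in M+CM, and its probes gave log2 ratios of PCB over sfPCB of 3.62 and 5.32. The first pair of signals lay below the lowest signal called well above background as an average over the probes, so the size of this ratio is not firm.

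**Figure D4:**
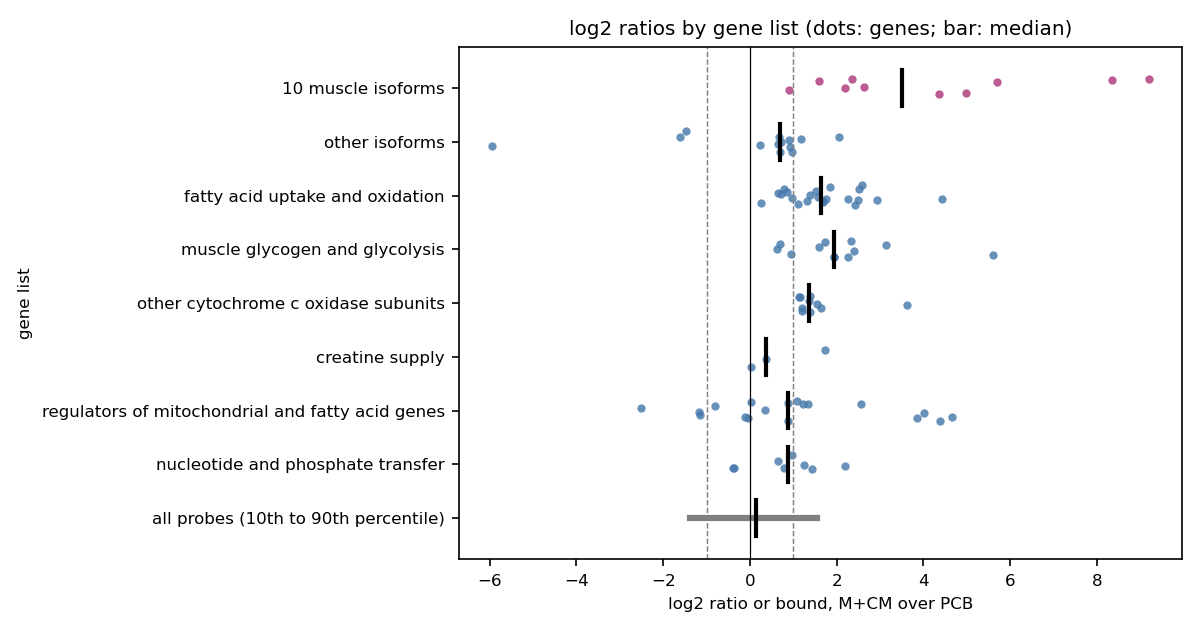
Log2 ratio, or bound, of M+CM over PCB for each gene (dots) of the 10 muscle forms and 7 other lists, with the median of each list as a black bar, 1 array per population. The grey bar spans the middle of all probes compared, from the 10th to the 90th percentile, and dashed lines mark 2-fold. The muscle forms have the rightmost median (3.50), followed by glycogen and glycolysis (1.95). The median of all probes compared, with bounds in place, is 0.14.

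Among 16741 other transcripts with a curated RefSeq identifier that were detected in M+CM, the profiles closest to the median profile of the 10 genes were those of Mlf1, Efr3b, Lrrc24, Atp2a2 and Mug1. The measure was the Euclidean distance between log2 signals centred over the 4 populations, which was 0.15 for Mlf1 and between 0.43 and 0.56 for the other 4. Atp2a2, the calcium pump of the sarcoplasmic reticulum in heart, had signals of 848.3 in Flk1+MPC, 1022 in sfPCB, 4367 in PCB and 60790 in M+CM. The 10 genes themselves lay between 0.57 (Cox7a1) and 5.32 (Cox6a2) from their own median, so the median profile describes no single one of them closely. Transcripts entered on detection in M+CM alone, the median profile includes the undetected signals of Cox8b, Ckmt2, Ckm and Mb, and Mug1 was itself below the detection limit in Flk1+MPC and sfPCB (11.7 and 10.3), so the distances rest in part on background.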

How the data were processed

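RNA of 4 mouse populations was measured on 1 array each. The authors deposited scanner intensities per spot, made with Feature Extraction 11.5.1.1, as background-subtracted processed signals with their errors, and a table of log2 values, which matched the log2 processed signal without scaling or centring. The array design names build mm9. Probes were matched to genes by RefSeq identifier, and 27502 of 39429 probes had 1 symbol. The members and gene lists were chosen with earlier results of these data known.

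Control spots and flagged spots (between 87 and 144 per array) were left out, and 0 spots were saturated. Repeated spots, and probes of 1 gene, were averaged on the log2 scale. Arrays were scaled to the 75th percentile. A probe was compared when at least 0.5 of its spots were well above background in at least 1 of the arrays. With 1 array per population no test was run, and precision rests on the number of arrays. Named genes were all members, all partner forms, and of each other list the 2 with the largest rise and fall from PCB to M+CM that lay in that direction. A gene that this rule names is not reported here. Genes named beside counts of 5 or fewer, and Ppargc1a, were chosen after their values were seen.

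Alternatives were quantile normalization, no scaling, the percentile over probes detected on all arrays, normexp (offset of 50, on median rather than mean intensities) with quantile normalization, an offset of 50, detection in both arrays, the brightest probe, and the table of log2 values. The counting steps were checked on simulated arrays. Probe sequences were not used here, so signal shared between close forms, such as Slc25a4 and Slc25a5, was not tested. Proteins were not analysed here. Python 3.11.15, numpy 2.4.6, pandas 2.3.3, matplotlib 3.10.9, R 4.3.3 and limma 3.58.1 were used.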

Additional observations from a re-analysis of the deposited data

Results flagged for a closer look

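Fabp3 moved in opposite directions from Flk1+MPC in the cardioblast arrays, with a log2 ratio of 2.28 in PCB and of -1.40 in sfPCB. With 1 array per population the difference was not tested, and both ratios use the same Flk1+MPC array.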

How the results depend on the processing

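The counts of genes at least 2-fold higher stayed within 1.5 times the reported ones under the 8 alternatives, from 4 to 5 for PCB against Flk1+MPC, 5 for PCB against sfPCB, 7 to 9 for M+CM against PCB, 2 for sfPCB against Flk1+MPC and 7 to 10 for M+CM against Flk1+MPC. The counts of 7, for M+CM against PCB and against Flk1+MPC, came from requiring detection in both arrays, which leaves out Mb, Ckm and Ckmt2 in the former and Cox8b, Mb and Ckmt2 in the latter. Of 382 recomputed ratios of single genes, 0 of the called ones changed sign and 65 moved beyond their error, 52 of them toward 0, with 29 under normexp and 18 under an offset of 50. The median log2 ratio of the 10 genes ranged from 0.72 to 2.60 for PCB against Flk1+MPC, 0.82 to 2.60 for PCB against sfPCB and 3.29 to 4.37 for M+CM against PCB. Without scaling, the median of all probes moved from -0.20 to -0.01 for PCB against Flk1+MPC, from 0.15 to -0.06 for M+CM against PCB and from -0.22 to 0.11 for sfPCB against Flk1+MPC. The share of higher ones among all probes at least 2-fold different then moved from 52.6% to 64.3%, from 56.1% to 43.7% and from 53.4% to 75.4%, and from 43.6% to 32.2% for PCB against sfPCB. With 1 array per population, the spread between cultures has no estimate, and signals near 15 set how far below the detection limit a gene can be followed.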
